A study of Mus musculus with 12 samples.

Results

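The sex difference of the liver was measured in mice raised on low-dose cadmium (LDC), by comparing the 3 arrays of LDC males with the 3 arrays of LDC females over autosomal genes. Leaving out 628 genes on the X, Y and mitochondrial chromosomes and 49 without a chromosome kept 17516 of the 18193 genes that the arrays name, and 12390 of these were bright enough to be tested. The mice were C57BL/6J offspring of dams that drank water with 100 nM CdCl2 from 1 week before mating. LDC males and LDC females stayed on the same water after weaning until the liver was taken at 30 weeks of age. Control males and control females of the same strain and age drank water alone, with 3 arrays in each sex, and all mice ate the same laboratory diet. Arrays within a group are labelled biological replicates, with no litter or cage given, so litter mates cannot be told apart and a p-value covers the spread between these samples only.

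Male and female mouse livers transcribe many autosomal genes at different rates. In males the pituitary releases growth hormone in pulses, and in females its plasma level is more even. The pulses switch the transcription factor STAT5 in hepatocytes on and off, and the repressor BCL6 can occupy the same DNA sites. Genes of steroid, drug and lipid metabolism, above all cytochromes P450, sulfotransferases and organic anion transporters, are well known members of this sex-biased set. Cadmium is a toxic metal that the liver holds bound to metallothionein, the product of Mt1 and Mt2.

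The labels of sex held on each array. Xist, transcribed from the inactive X chromosome, read 17326 to 18137 in the 3 LDC females and 72.3 to 134 in the 3 LDC males, and the Y-linked gene Eif2s3y read at most 9.7 in the females and 2234 to 2393 in the males. Albumin (Alb), apolipoprotein A1 (Apoa1) and the other 5 hepatocyte markers tested had log2 sex differences of 0.10 or less, and 0 of the 7 passed (limma, 0 also at an unadjusted p under 0.05). Median signal ran from 97.3 to 100.3 in LDC females and from 98.8 to 110.1 in LDC males, the upper quartile from 408.9 to 426.6 and from 397.4 to 410.7, and the 3'/5' ratio of the Gapdh control probe sets from 0.729 to 0.788 and from 0.684 to 0.763. The part of these small shifts in the results was not tested. Since whole liver was used, fewer cells of a type and less RNA per cell cannot be told apart.

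Promoter sequence is shown for 3 pairs of genes with strong sex differences, as the 250 bases before the RefSeq transcription start (mouse build GRCm38.p6). The first 2 pairs are female-biased and the last is male-biased in LDC mice only. Cyp2b9 (chr7:26173159-26173408, plus strand) and Cyp2b13 (chr7:26061245-26061494, plus strand) are neighbouring female-biased cytochrome P450 genes whose windows differ at 2 of 250 bases, shown in capitals.
Cyp2b9: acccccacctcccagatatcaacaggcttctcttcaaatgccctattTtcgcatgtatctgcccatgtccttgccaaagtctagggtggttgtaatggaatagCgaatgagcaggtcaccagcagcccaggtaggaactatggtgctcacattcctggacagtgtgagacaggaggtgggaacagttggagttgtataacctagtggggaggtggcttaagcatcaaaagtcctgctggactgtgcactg
Cyp2b13: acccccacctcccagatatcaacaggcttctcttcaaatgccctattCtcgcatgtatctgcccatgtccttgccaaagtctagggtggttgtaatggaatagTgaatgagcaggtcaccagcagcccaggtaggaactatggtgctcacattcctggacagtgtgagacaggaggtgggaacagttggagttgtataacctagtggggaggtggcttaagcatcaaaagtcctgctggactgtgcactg
The female-biased genes Sult3a1 (chr10:33857472-33857721, plus strand) and Slc22a26 (chr19:7802668-7802917, minus strand) each hold 1 match to the STAT5 motif TTCNNNGAA, shown in capitals, 109 and 141 bases before the start. The motif reads the same on both strands. Neither Cyp2b window above holds it, and it was not found for Slc22a27 or Slc22a29. Of the 171 genes chosen by the naming rule given below that have a window of 300 bases, 18 hold it.
Sult3a1: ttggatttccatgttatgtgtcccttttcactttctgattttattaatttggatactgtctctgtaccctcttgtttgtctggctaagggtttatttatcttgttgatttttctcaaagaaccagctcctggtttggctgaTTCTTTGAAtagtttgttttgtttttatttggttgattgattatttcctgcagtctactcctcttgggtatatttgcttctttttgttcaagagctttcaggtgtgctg
Slc22a26: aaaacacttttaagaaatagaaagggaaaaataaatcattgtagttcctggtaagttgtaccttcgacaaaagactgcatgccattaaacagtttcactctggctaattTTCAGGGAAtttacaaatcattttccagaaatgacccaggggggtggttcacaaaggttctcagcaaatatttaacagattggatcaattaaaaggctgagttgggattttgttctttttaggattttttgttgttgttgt
The metallothionein genes Mt2 (chr8:94172368-94172617, plus strand) and Mt1 (chr8:94178839-94179088, plus strand) are shown with matches to the metal response element core in capitals, written TGCACNC or TGCGCNC and searched on both strands. This motif was chosen after the values were seen. Mt2 holds 3 matches and Mt1 holds 1, and neither window holds TTCNNNGAA.
Mt2: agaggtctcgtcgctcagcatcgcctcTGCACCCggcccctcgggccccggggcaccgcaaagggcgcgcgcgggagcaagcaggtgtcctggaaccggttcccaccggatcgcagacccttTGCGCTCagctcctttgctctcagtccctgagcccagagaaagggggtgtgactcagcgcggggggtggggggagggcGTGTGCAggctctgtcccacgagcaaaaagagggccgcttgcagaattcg
Mt1: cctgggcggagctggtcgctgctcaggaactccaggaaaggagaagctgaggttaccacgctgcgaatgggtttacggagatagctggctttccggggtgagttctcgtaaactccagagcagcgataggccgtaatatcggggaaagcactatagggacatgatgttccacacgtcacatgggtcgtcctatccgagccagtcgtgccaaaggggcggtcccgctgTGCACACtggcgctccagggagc
In windows of 300 bases (250 before to 50 after the start), TTCNNNGAA was found in 8.3% of all 32851 windows, in 9.44% of the genes higher in LDC females, 8.21% of those higher in LDC males and 8.5% of all tested genes with a window. The metal response core was found in 25.7% of all windows, and in 39.4% of all tested genes with a window. Its share was 40.2% of the genes higher in LDC males and 42.6% of those higher in LDC females. A gene with several windows counts when any of them holds a match. These matches describe letters and not bound sites.

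Of the 12390 autosomal genes, 418 were higher in LDC males and 515 were higher in LDC females. A gene was called when its adjusted p was under 0.05, and it was represented by its brightest tested probe set. These are 3.37% and 4.16% of the genes tested, and 7.53% together. At an unadjusted p under 0.05 from limma, 1104 genes lay toward males and 1614 toward females. The difference was at least 2-fold for 185 and at least 16-fold for 8 of the male-biased genes, and for 163 and 9 of the female-biased genes. Median log2 differences, males minus females, were 0.92 and -0.81 among the called genes and -0.05 over all genes tested. The arrays of the sexes did not overlap for any of the 418 male-biased genes and for 514 of the 515 female-biased genes. The exception was Sema3f. Over all tested genes, 12.7% had no overlap with males above and 17.5% with females above. The calls rest on the same arrays, so the lack of overlap is no separate support for them. Males held 44.8% of the calls. After median centring, which moved the median of all genes to -0.13, there were 310 male-biased and 698 female-biased genes, so males held 30.75%.

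These counts depended on single arrays and on how the variance was estimated. The male-biased genes numbered 269 without LDC male 3. The female-biased genes numbered 301, 293 and 317 without LDC female 1, 2 and 3, and 327 without LDC male 3. With eBayes without a trend, 244 genes were higher in males and 247 in females.

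In control mice 482 genes (3.89%) were higher in males and 680 (5.49%) in females. That control mice had more calls than LDC mice depended on the fit. When each exposure was fitted on its own 6 arrays, 1219 genes were called in LDC and 606 in control mice, and with array weights 1293 and 1004. The LDC and control comparisons have no array in common, although both draw on the same variance estimate. Of the genes called in LDC mice, 430 were called in the same direction in control mice, which is 46.09% of the LDC calls and 37.01% of the control calls. Only 6 were called in opposite directions, Igkv8-30, Nfkbiz, Ngp, Prtn3, S100a8 and S100a9, each higher in LDC males and in control females. Across the 12390 genes the log2 sex differences of LDC and control mice correlated with Pearson's r = 0.429 and Spearman's rho = 0.327. Over the 1659 genes called in either, r was 0.75. These genes were picked by the same differences that are correlated, so the higher r is no further support. Genes are not independent replicates, and the arrays share chip design and scaling.

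**Figure D1:**
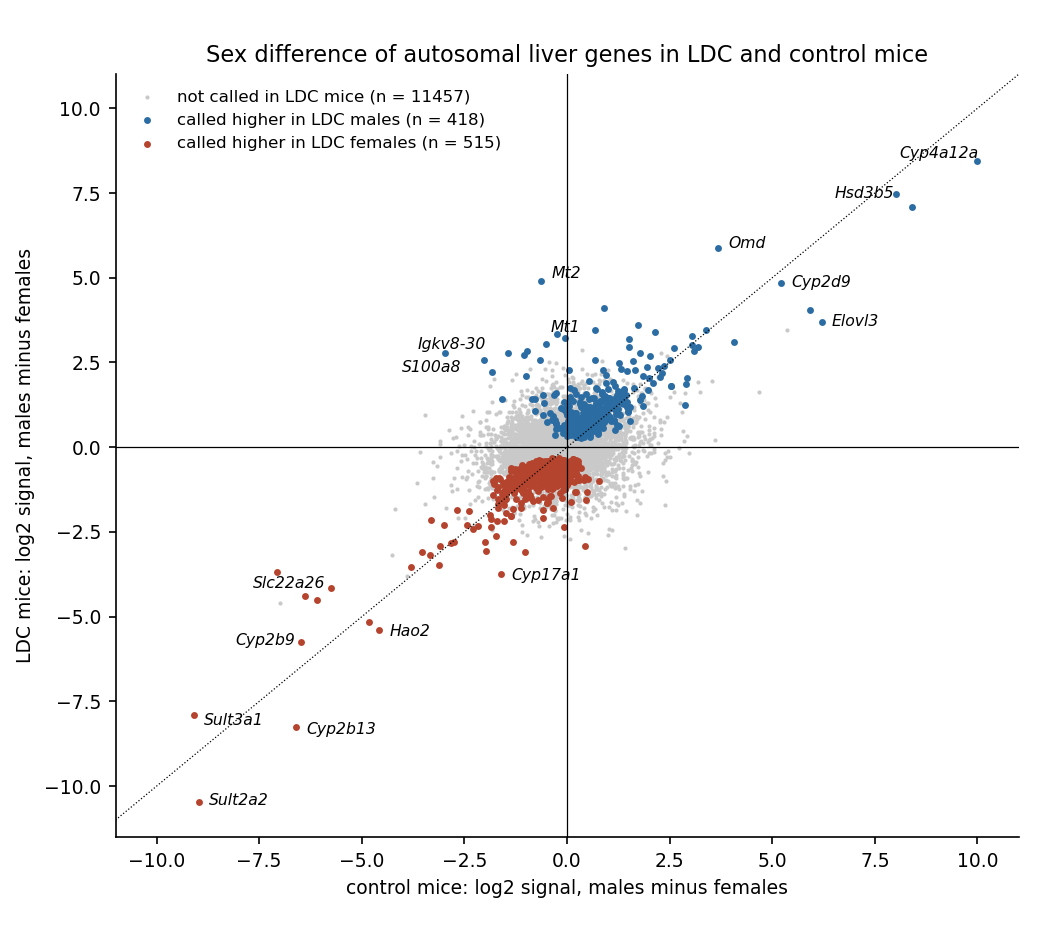
Log2 signal of males minus females in LDC mice (y axis) against control mice (x axis), 1 point for each of 12390 autosomal genes, with the 418 genes called higher in LDC males in blue, the 515 called higher in LDC females in red and the rest in grey. The dotted line marks equal differences. Most strongly sex-biased genes lie near it, while Mt2, Mt1 and S100a8 lie in the upper left, higher in LDC males but not in control males.

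The strongest male-biased gene was Cyp4a12a, a fatty acid and arachidonic acid hydroxylase under androgen control. It read 10299, 8658 and 7532 in the LDC males against 9.82, 14.1 and 114 in the LDC females, a log2 difference of 8.45 (standard error 0.85, adjusted p = 3.29e-05 from limma). The ranges were far apart, but the female signals of Cyp4a12a lay mostly under the filter level of 48.6, and with signals under that level raised to it the gene was 135-fold higher in males. Hsd3b5, a steroid 3-keto reductase of male liver, read 2679.9, 4073 and 1829.8 in males and 32.3, 10.3 and 11 in females (log2 difference 7.46, adjusted p = 4.71e-06), or 55.8-fold with the raised signals. Scara5, a scavenger receptor that takes up ferritin, read 1422, 2935 and 1779 against 6.31, 13.3 and 35.2 (log2 difference 7.09, adjusted p = 7.7e-06), or 40.1-fold. The same 3 genes were male-biased in control mice, with log2 differences of 9.99, 8.01 and 8.40. Omd, a small leucine-rich proteoglycan gene, read 303, 414 and 259 in LDC males and 4.11 to 6.58 in LDC females. Its log2 difference was 5.89 (adjusted p = 0.000876), which fell to 6.56-fold with the raised signals, and 3.69 in control mice.

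Cyp2d9, a testosterone 16-alpha-hydroxylase, had the smallest p-value of the comparison. It read 26151, 23738 and 20889 in LDC males and 1006, 702 and 785 in LDC females, 28.6-fold higher in males (log2 difference 4.84, standard error 0.16, adjusted p = 2.86e-10 from limma). The spread within each sex was small beside this gap, and control mice gave 5.21. Elovl3, which lengthens very long fatty acyl chains, read 4317, 3213 and 2100.0 in LDC males and 286, 194 and 249 in LDC females (12.8-fold, adjusted p = 8.87e-05). Control males averaged 14825 ± 1498 (SD, n = 3) and LDC males 3209.8 ± 1108 for Elovl3, so its log2 difference was 3.68 in LDC and 6.2 in control mice, and the test of this change did not pass (adjusted p = 0.144).

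Other male-biased genes with the largest differences were Asns (12.2-fold, or 10.2-fold with the raised signals), Nat8f5 (11.1-fold), Zbed5 (6.40-fold), Fbf1 (10.1-fold) and Serpina4-ps1 (10.9-fold), the last 3 with signals under 48.6 raised to it. Asns makes asparagine, and it read 654, 1040.4 and 249 in LDC males and 67.9, 47.1 and 28.9 in LDC females (adjusted p = 0.000404). Nat8f5 belongs to a family of N-acetyltransferases and lies beside Nat8, which was 7.18-fold higher in males. The calls of Fbf1 and Serpina4-ps1 were weak. Fbf1 lost its call without LDC female 2 or 3 or any of the LDC males (highest adjusted p = 0.0992), and Serpina4-ps1 lost it without those arrays or control male 2 (0.175).

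Several receptors and enzymes had smaller but tighter male bias. Egfr, the receptor of epidermal growth factor, read 20034, 18407 and 17414 in LDC males and 4315, 4187 and 3324 in LDC females (log2 difference 2.25, adjusted p = 1.05e-06), against 1.45 in control mice. Ttc39c read 11043, 10448 and 8072 against 2148, 2173 and 2100.5 (4.56-fold, adjusted p = 7.6e-07). Gstp1, a glutathione S-transferase, averaged 39560.3 ± 2276 (SD, n = 3) in males and 18006 ± 1722 in females (2.20-fold, adjusted p = 3.89e-06). St3gal5, which makes the ganglioside GM3, was 3.31-fold higher in males (adjusted p = 4.71e-06). All of these calls stood in each fit that left out 1 array.

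**Figure D2:**
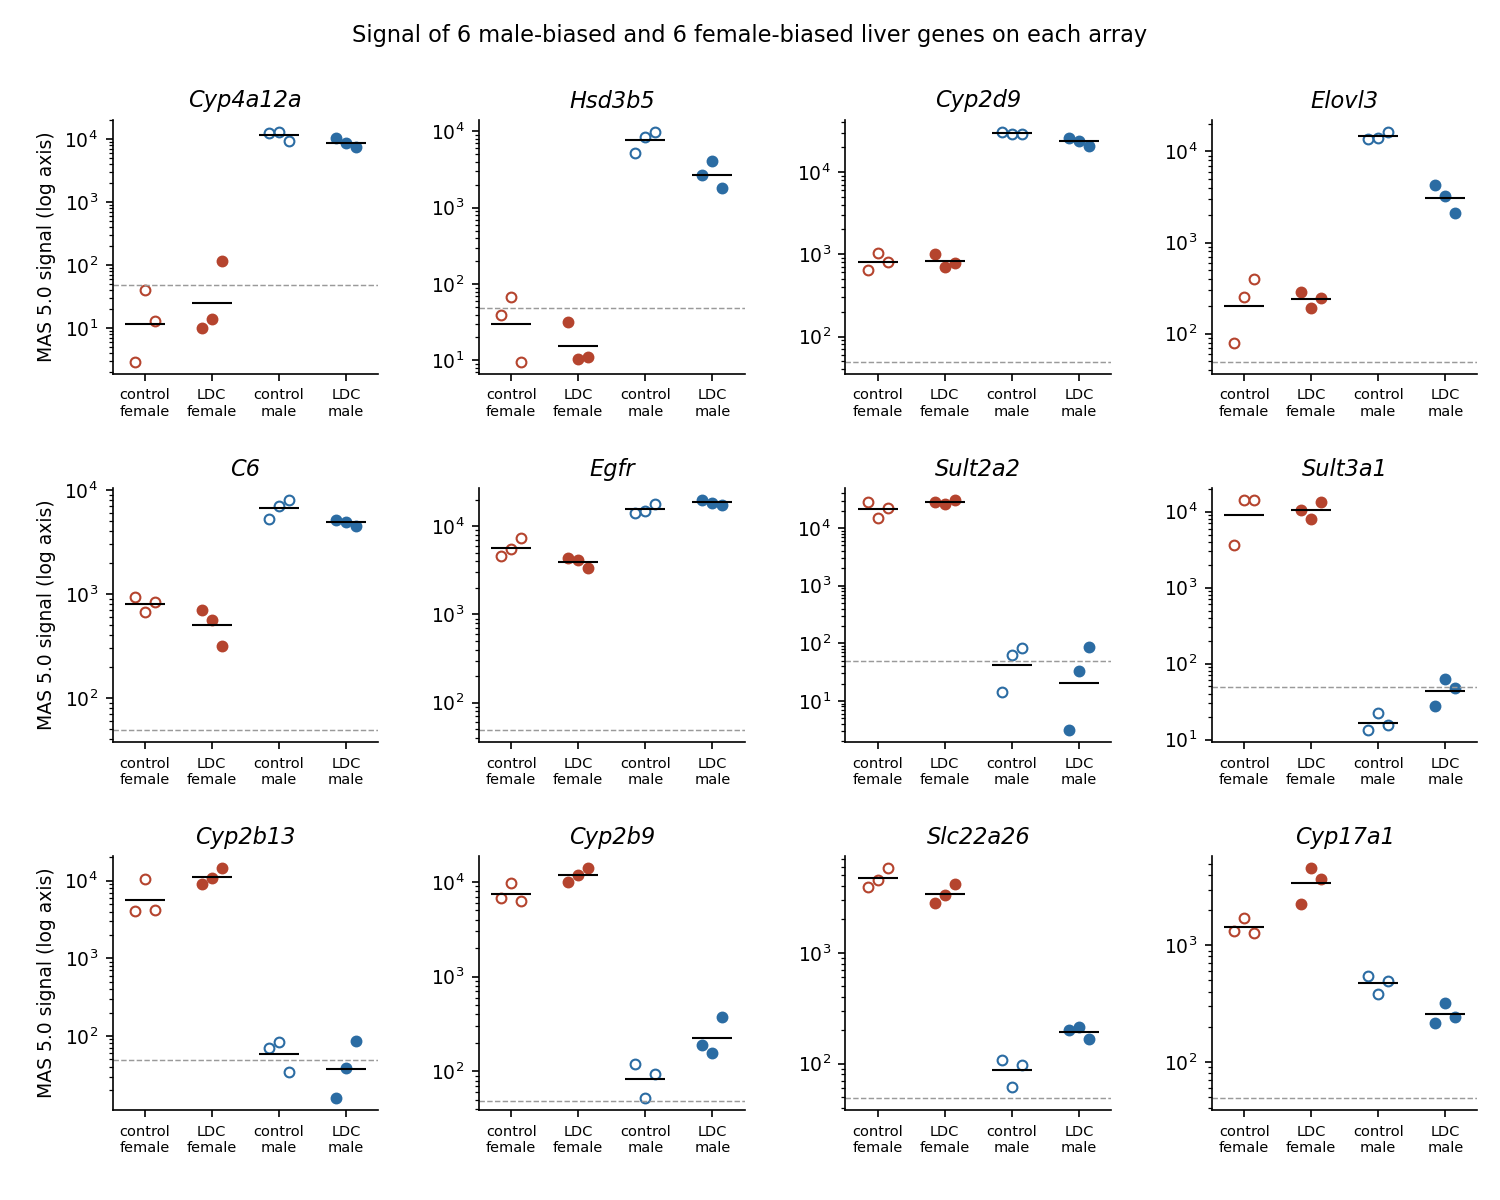
MAS 5.0 signal on a log axis (y axis) of 6 male-biased and 6 female-biased genes in the 4 groups (x axis), with 1 point per array, filled for LDC and open for control mice, and a line at the geometric mean of each group. The dashed line is the filter level of 48.6. LDC males and LDC females do not overlap for any of the 12 genes, and for Cyp4a12a, Hsd3b5, Sult2a2, Sult3a1 and Cyp2b13 the lower sex lies around or under the dashed line.

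The female-biased genes had the largest differences of all. Sult2a2, a sulfotransferase of hydroxysteroids, read 28816, 26581 and 31300.0 in LDC females and 3.07, 32.7 and 84.9 in LDC males, a log2 difference of -10.46 (standard error 0.88, adjusted p = 7.08e-06 from limma). With signals under 48.6 raised to it, Sult2a2 was 492-fold higher in females. Sult3a1, a sulfotransferase that acts on amines, read 10587, 7921 and 13500.5 against 27.8, 63.1 and 48.1 (adjusted p = 1.84e-07), or 196.5-fold with the raised signals. Neither reached 100 on any LDC male array. In control mice the log2 differences were -8.96 and -9.09.

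The cytochrome P450 genes whose promoters are printed above were next. Cyp2b13 read 8996, 10922 and 14723 in LDC females and 15.7, 38.1 and 86.1 in LDC males, a log2 difference of -8.25 (adjusted p = 4.57e-07), or 192-fold with the raised signals. Cyp2b9 read 9944, 11848 and 14099 against 188, 157 and 372, a log2 difference of -5.74 (adjusted p = 1.84e-07). Control mice gave -6.59 for Cyp2b13 and -6.48 for Cyp2b9. For neither did the change between LDC and control mice pass its test (adjusted p = 0.463 for Cyp2b13 and 0.61 for Cyp2b9). Probes of such similar genes can cross-hybridise, and this was not tested.

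Of the organic anion transporter genes on chromosome 19, Slc22a26, Slc22a27 and Slc22a29 were female-biased, and Slc22a30 was not called (log2 difference -0.26, adjusted p = 0.317). Slc22a26 read 2836, 3349 and 4176 in LDC females and 199.6, 213 and 166 in LDC males (17.8-fold, adjusted p = 1.37e-07). Slc22a27 was 20.9-fold higher in females (adjusted p = 0.000946), and Slc22a29 read 1689.6, 2006 and 1931 against 139, 137 and 222 (11.6-fold, adjusted p = 3.91e-06). All 3 transporters were called in control mice too. For Slc22a26 the log2 difference was -4.15 in LDC and -5.76 in control mice, with LDC males at 193 ± 24.2 (SD, n = 3) and control males at 89.6 ± 24.7, and the test of this change gave an adjusted p of 0.0663.

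Hao2, a peroxisomal hydroxy acid oxidase, read 763, 1087 and 1464 in LDC females and 15.5 to 45.8 in LDC males (adjusted p = 2.58e-05), or 21.9-fold with the raised signals. Sybu, a linker of cargo to kinesin motors, was 7.30-fold higher in females on that scale. Nt5e, the ecto-enzyme that makes adenosine from AMP, read 1729, 1758 and 2014 in LDC females and 306, 204 and 233 in LDC males (7.5-fold, adjusted p = 4.6e-06). Abcd2, a peroxisomal transporter of very long-chain fatty acids, averaged 1248 ± 87.9 (SD, n = 3) in LDC females and 99.4 ± 25.6 in LDC males (12.8-fold, adjusted p = 0.0218). Tafa2, a secreted chemokine-like protein gene, was 8.99-fold higher with the raised signals. The call of Abcd2 ended without LDC male 2 or 3 or any of the LDC females (highest adjusted p = 0.0778), and that of Tafa2 without LDC female 2 or 3 (0.0729).

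Among genes already known to differ between male and female mouse liver, those called in LDC mice had the known direction, with 1 exception. These lists were written with earlier results of these data known, so the shared direction is no independent check. Of 32 known male-biased genes tested, 21 were higher in LDC males and 0 in LDC females, with a median log2 difference of 1.29, while 25 and 0 were called in control mice at a median of 1.53. Of 46 known female-biased genes, 25 were higher in LDC females and 1 in LDC males, at a median of -1.04, while 35 and 1 were called in control mice at a median of -1.55. Counting uncalled genes too, the sign was toward males for 27 of the 32 and toward females for 42 of the 46. The exception among the called genes was Lpin1, a phosphatidate phosphatase of triglyceride synthesis, which read 10804, 17116 and 13256 in LDC males and 1676, 1613 and 1739 in LDC females (8.05-fold, adjusted p = 4.6e-06). Cyp2f2, a P450 of xenobiotic metabolism, was called in control mice only (log2 difference 0.75), with 0.27 and an adjusted p of 0.0619 in LDC mice. Slco1a1, a bile acid and steroid uptake transporter, read 5274, 8505 and 4791 in LDC males and 754, 209 and 1049.5 in LDC females without passing (standard error 1.35, adjusted p = 0.168), although the arrays of the sexes did not overlap.

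Drug-metabolising families split by member. Of 31 Cyp2 enzymes, 1 was higher in LDC males (Cyp2d9) and 7 in LDC females, Cyp2b9, Cyp2b13, Cyp2b10, Cyp2g1, Cyp2c38, Cyp2c39 and Cyp2c68. Cyp2c39, a retinoic acid hydroxylase, read 494, 554 and 632 in females and 107, 124 and 104 in males (5-fold, adjusted p = 8.38e-05). Cyp2c68 averaged 34386 ± 1939 (SD, n = 3) and 16046 ± 1981. Cyp2e1, the ethanol-oxidising P450, showed a log2 difference of 0.03. In control mice 6 Cyp2 genes were male-biased and 8 female-biased, and no Cyp2 gene passed limma's test of a change between LDC and control mice (7 at an unadjusted p under 0.05).

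Among other conjugating and oxidising enzymes, Cyp3a44 was 7.15-fold (adjusted p = 8.3e-05) and the retinoic acid hydroxylase Cyp26a1 4.02-fold higher in LDC females (adjusted p = 0.000491). Of 10 glucuronosyltransferases tested, 3 were higher in males and 0 in females. Ugt2b1 read 24279, 24284 and 21009 in LDC males and 8221, 9628 and 13327 in LDC females (2.27-fold, adjusted p = 0.000361), and Ugt2b38 was 8.53-fold higher in males (adjusted p = 0.00429). The third, Ugt2b5, was 1.23-fold higher (adjusted p = 0.0474) and lost its call without LDC female 1 or 2, any LDC male, control female 2 or control male 2 or 3 (highest adjusted p = 0.174). Of 8 sulfotransferases, 3 were higher in females and 0 in males, and Sult1c2, which is not described above, lost its call without LDC female 1 or 2 or LDC male 1 or 2 (highest adjusted p = 0.0921). None of 15 carboxylesterases and other esterases was called in LDC mice by limma (7 had an unadjusted p under 0.05), whereas 4 were male-biased and 2 female-biased in control mice. Beside this, 7.53% of all 12390 genes were called in LDC mice, and 1104 toward males and 1614 toward females had such an unadjusted p. Ces2a, which hydrolyses drugs and lipids, had a log2 difference of 0.36 in LDC and 1.08 in control mice, and the change did not pass (adjusted p = 0.144).

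**Figure D3:**
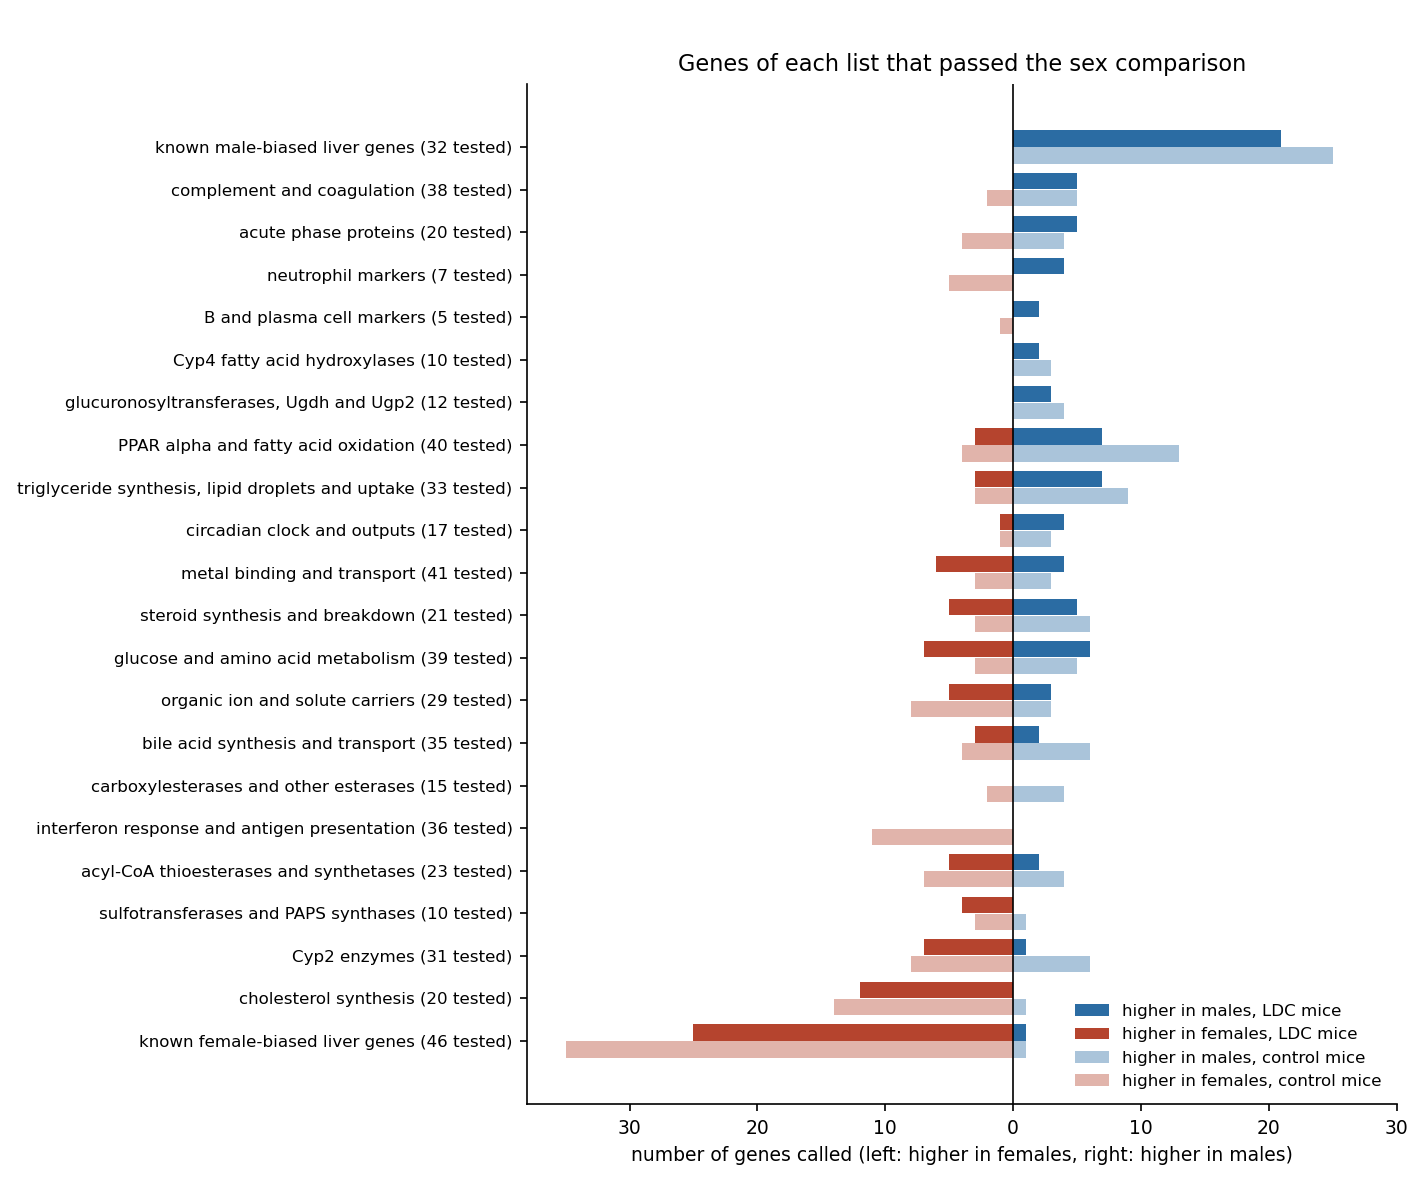
Number of genes called higher in males (bars to the right) and in females (bars to the left) for 22 gene lists (y axis, with the number of genes tested), in dark colours for LDC and in pale colours for control mice. Known sex-biased genes and cholesterol synthesis point the same way in both, the neutrophil markers point right in LDC and left in control mice, and the interferon list has 0 calls in LDC and 11 in control mice.

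No gene of the growth hormone pathway itself passed between LDC males and LDC females. Of its 18 genes tested, limma called 0, beside 7.53% of all 12390 genes, so few calls were to be had in so short a list. At an unadjusted p under 0.05 there were 5 toward males and 1 toward females, beside 1104 and 1614 of all 12390. The receptor gene Ghr read 20864, 19321 and 18151 in males and 16982, 19244 and 20327 in females (log2 difference 0.05). Stat5a and Stat5b had log2 differences of -0.42 (adjusted p = 0.473) and -0.24 (adjusted p = 0.432), and the feedback inhibitors Socs2 and Cish 0.40 and -0.32 (adjusted p = 0.787 and 0.739). The repressor gene Bcl6, in contrast, read 1809, 2523 and 1810.4 in LDC males and 232, 190.5 and 404 in LDC females (7.74-fold, adjusted p = 0.00148 from limma). In control mice Bcl6 averaged 1067 ± 794 (SD, n = 3) in males and 342 ± 208 in females (adjusted p = 0.0692).

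Of the 20 regulators with known or possible sex bias, 3 were higher in LDC males and 1 in LDC females. Besides Bcl6 these were the bZIP factor Cebpb (2.49-fold, adjusted p = 7.74e-05), the forkhead factor Foxa3 (2.12-fold, adjusted p = 0.00406) and, in females, the zinc finger gene Sall1, which read 909, 945 and 814 against 482, 465 and 466. Cux2, a repressor found mainly in female liver, differed by -0.33 on the log2 scale (adjusted p = 0.585) at the brightest of its probe sets, and 1 of its 3 probe sets was called higher in females. Trim24, Hnf4a, Onecut1 and Foxa2 had log2 differences of -0.27, 0.22, -0.24 and -0.30, and none of these 4 passed. Prlr was not analysed here.

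Estrogen receptor alpha (Esr1) was female-biased in control mice and was not called in LDC mice. It read 2373, 2560.2 and 2109.5 in LDC females and 1899, 1944 and 1789.6 in LDC males, a log2 difference of -0.32 (adjusted p = 0.308). Control females averaged 2818 ± 739 (SD, n = 3) and control males 911 ± 27.9, a log2 difference of -1.59 (adjusted p = 2.89e-05). The change of 1.27 passed its test (adjusted p = 0.041), but not in the fits without control female 2 or 3 or any array of the other 3 groups (highest adjusted p = 0.12). None of the 6 sex steroid and glucocorticoid receptor genes tested was called in LDC mice by limma, and 1 had an unadjusted p under 0.05. For all 12390 genes the called share was 7.53%, with 1104 toward males and 1614 toward females at that unadjusted p.

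Of 21 genes of steroid synthesis and breakdown, 5 were higher in LDC males and 5 in LDC females. Cyp17a1, the 17-alpha-hydroxylase of androgen synthesis, read 2267, 4614 and 3712 in LDC females and 216, 319 and 243 in LDC males (13.2-fold, adjusted p = 5.39e-07). Its female bias was wider than in control mice, where females averaged 1436 ± 249 (SD, n = 3) and males 475 ± 84.4. The change in log2 difference was -2.13 (standard error 0.34, adjusted p = 0.0211), and its call ended in 6 of 12 leave-one-out fits (without LDC female 2 or 3, LDC male 1 or 3, control female 3 or control male 3, highest adjusted p = 0.0854). Cyp7b1, which hydroxylates oxysterols and steroids, read 19175, 17748 and 10901 in LDC males and 3674, 4273 and 4949.6 in LDC females (3.63-fold, adjusted p = 0.000103). Hsd17b6, which oxidises androgen metabolites, read 10579, 7941 and 7266 in LDC females and 2397, 2569 and 3347 in LDC males (3.09-fold, adjusted p = 0.000562). In control mice Hsd17b6 had a log2 difference of 0.09, and the change of -1.72 did not pass (adjusted p = 0.0581).

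Cholesterol synthesis was female-biased as a block. Of its 20 genes tested, 12 were higher in LDC females and 0 in LDC males, and the median log2 difference was -0.90, against -0.05 over all genes. Mvd, the mevalonate pyrophosphate decarboxylase, read 1001, 1057 and 953 in LDC females and 174, 206 and 307 in LDC males (4.51-fold, adjusted p = 0.000164 from limma). Sqle, squalene epoxidase, read 3976, 5319 and 4975 against 2320.0, 2006 and 1929.9 (2.27-fold, adjusted p = 9.84e-05). Fdft1, squalene synthase, and Idi1, an isopentenyl pyrophosphate isomerase, were 2.41-fold and 1.81-fold higher in females. Insig1, a target and brake of the sterol sensor SREBP, read 14842, 18995 and 14944 against 6763, 5519 and 6434 (2.60-fold, adjusted p = 9.59e-06). No array of an LDC male reached the lowest LDC female for any of these 5 genes. Fdps was not called (log2 difference -0.48, adjusted p = 0.123), nor was Insig2 (-0.09, adjusted p = 0.849). In control mice 14 of the 20 genes were female-biased and 1 male-biased, at a median of -1.28, and 0 of the 20 passed limma's test of a change between LDC and control mice (3 at an unadjusted p under 0.05).

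Fatty acid synthesis followed for a few genes. Srebf1, the master regulator of lipogenesis, read 10048, 13576 and 9247 in LDC females and 1651, 3704 and 2281 in LDC males (4.49-fold, adjusted p = 0.00166). Fasn, fatty acid synthase, read 10867, 13516 and 9591 against 2412, 4002 and 2103 (4.11-fold, adjusted p = 0.00122). Of 27 genes of synthesis, elongation and desaturation, 3 were higher in LDC females and 1, Elovl3, in LDC males. Acsl3, an acyl-CoA synthetase of lipid droplets, was 2.68-fold higher in LDC females (adjusted p = 4.73e-05), and Acnat2, a peroxisomal acyl transferase, 5.13-fold (adjusted p = 0.000218).

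**Figure D4:**
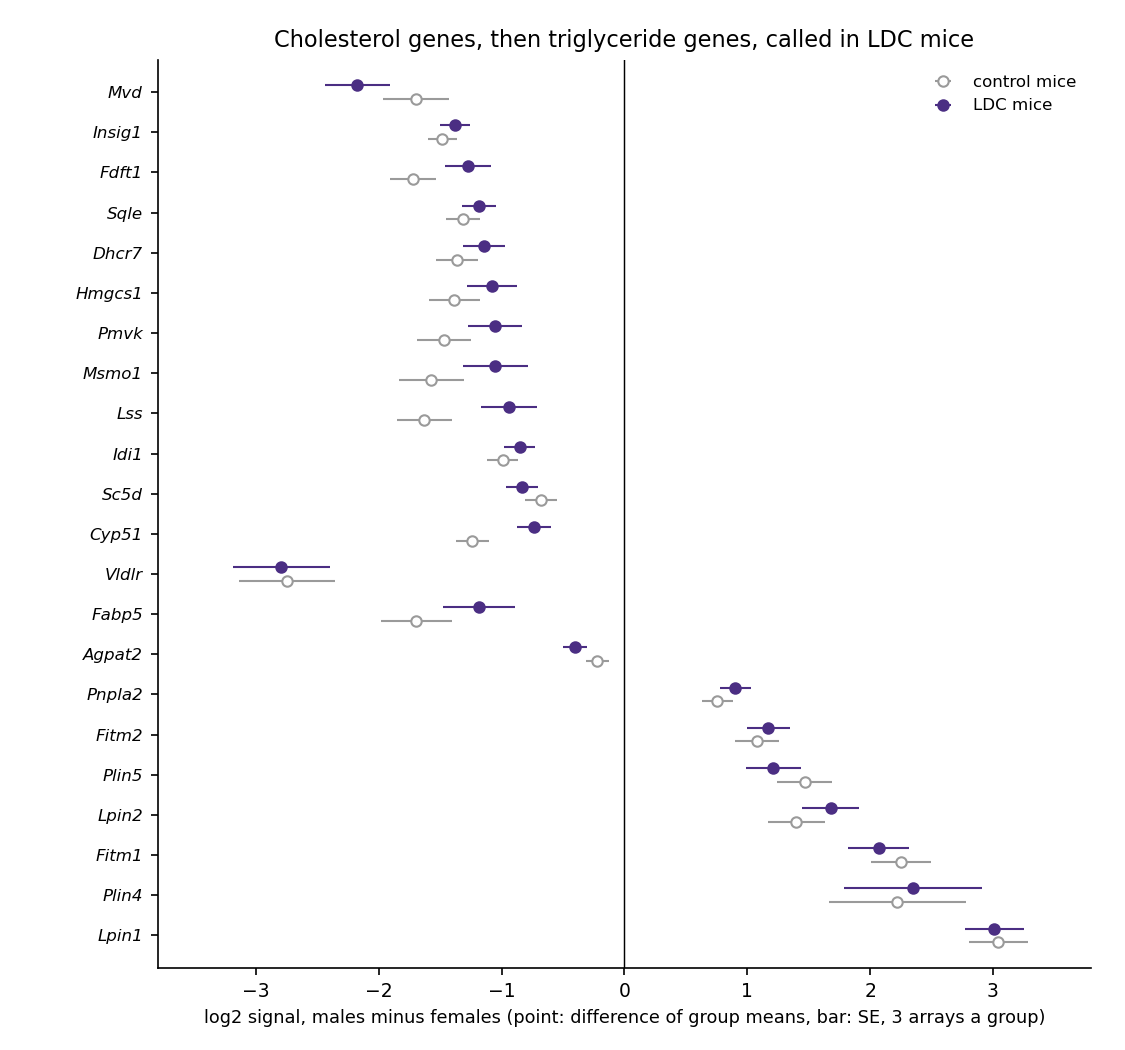
Log2 signal of males minus females (x axis) for the 22 genes of cholesterol synthesis and of triglyceride synthesis, lipid droplets and uptake that were called in LDC mice (y axis), as filled points for LDC and open points for control mice with bars for the standard error of the difference. All 12 cholesterol genes lie left of 0, while 7 triglyceride and droplet genes lie right of it, led by Lpin1 at 3.01.

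Triglyceride and lipid droplet genes leaned the other way. Of 33 tested, 7 were higher in LDC males and 3 in LDC females, at a median of 0.36. Besides Lpin1, its relative Lpin2 (3.20-fold, adjusted p = 0.000417), the droplet-forming gene Fitm1 (4.20-fold, adjusted p = 0.00012) and the triglyceride lipase gene Pnpla2 (1.87-fold, adjusted p = 0.000511) were higher in males. Fitm1 read 2821, 3112 and 2282 in LDC males and 599, 548 and 828 in LDC females. Vldlr, the receptor that takes up VLDL, was female-biased, at 832, 1014 and 1192 against 89.8, 145 and 232 (6.93-fold, adjusted p = 0.000511). Control mice had 9 and 3 genes of this list called.

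Fatty acid oxidation under PPAR alpha showed the same lean, with 7 of 40 genes higher in LDC males and 3 in LDC females at a median of 0.16. In control mice 13 genes of this list were male-biased and 4 female-biased, at a median of 0.37. The receptor gene Ppara read 4848, 4156 and 4707 in LDC males and 2298, 2499.9 and 2887 in LDC females (1.79-fold, adjusted p = 0.00106). Its targets Angptl4, an inhibitor of lipoprotein lipase (6.90-fold, adjusted p = 0.00044), and Cpt1a, which admits fatty acids to mitochondria (2.33-fold, adjusted p = 0.000876), were also male-biased. So was Pex11a, a factor of peroxisome division (2.37-fold, adjusted p = 1.37e-05). Acaa1b and Hadh, the brightest uncalled genes of this list, had log2 differences of 0.19 and -0.13 with signals under 48.6 raised to it. The 3 female-biased genes were Hao2, Abcd2 and Vnn3.

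Acot3 and Acot4, thioesterases of this pathway that control mice express with female bias, were not called in LDC mice. Acot3 read 3335, 2096 and 4640.0 in LDC males and 2129, 4025 and 5044 in LDC females (log2 difference -0.14, adjusted p = 0.899), ranges that overlapped, while control males averaged 352 ± 159 (SD, n = 3) and control females 3917 ± 705. The change in its sex difference was 3.45 (standard error 0.54, adjusted p = 0.0167). For Acot4 the log2 difference was 0.15 in LDC and -1.53 in control mice, a change of 1.68 (adjusted p = 0.0441).

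The complement genes called between LDC males and LDC females were all male-biased. Of 38 complement and coagulation genes, 5 were higher in LDC males and 0 in LDC females. The terminal complement genes C6, C8a, C8b and C9 were 9.73-fold, 3.27-fold, 2.37-fold and 1.66-fold higher in LDC males. C6 read 5169, 4966 and 4496 in males and 701, 562 and 318 in females (adjusted p = 1.72e-06). Of 20 acute phase genes, 5 were higher in LDC males and 0 in LDC females, while control mice had 4 in each direction. Il6ra, the interleukin-6 receptor, read 2383, 2488 and 2611 in LDC males and 556, 596 and 827 in LDC females (3.83-fold, adjusted p = 8.87e-05), and Cebpd was 2.80-fold and Saa4 1.75-fold higher in males. Other plasma proteins went both ways. Of 18 serine protease inhibitors, 3 were higher in LDC males (Serpina4-ps1, Serpina12 and Serpina3n) and 2 in LDC females (Itih2 and Serpinb1a). These 5 calls were weak. Each ended in 3 to 6 of 12 leave-one-out limma fits (highest adjusted p from 0.101 to 0.178) and with eBayes without a trend. Of 21 genes of lipoproteins and their handling, 0 were higher in LDC males and 2 in LDC females. The latter were the apolipoprotein genes Apom (1.49-fold, adjusted p = 0.000756) and Apol7a (2.24-fold, adjusted p = 0.000767).

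Of 39 genes of glucose and amino acid metabolism, 6 were higher in LDC males and 7 in LDC females. Gys2, liver glycogen synthase, read 6541, 9184 and 6965 in males and 2653, 2344 and 2661 in females (2.94-fold, adjusted p = 6.88e-05). Ppp1r3c, a subunit that targets a phosphatase to glycogen, was female-biased, at 7038, 5946 and 5180.3 against 895, 915 and 1122 (6.18-fold, adjusted p = 0.000269). Cbs, which makes cystathionine from homocysteine, was 1.79-fold higher in females, and Pck1, of gluconeogenesis, 2.12-fold higher in males through its brightest probe set, although 1 of its 3 probe sets was called in the other direction. Of 17 clock genes, 1 was higher in LDC females and 4 were higher in LDC males, among them Usp2, at 3335, 3855 and 4082 against 262, 536 and 777 (7.83-fold, adjusted p = 0.00176), and Nr1d2 (1.77-fold, adjusted p = 0.00633). The calls of the female-biased Arntl and of the male-biased Per1 and Rora were weak. Arntl (2.88-fold) lost its call without any of the 6 LDC arrays (highest adjusted p = 0.156), Per1 without LDC female 1 or LDC male 2 or 3 (0.0849), and Rora without LDC female 2 or LDC male 2 or 3 (0.0765).

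Metal genes held some of the widest sex differences of the LDC mice. Mt2, which encodes a metallothionein, read 17656, 22543 and 22872 in LDC males and 474, 774 and 936 in LDC females (29.8-fold, log2 difference 4.90, standard error 0.33, adjusted p = 9.51e-07 from limma). Mt1 read 23492, 35568 and 34259 against 3227, 3593 and 4408 (8.24-fold, adjusted p = 3.89e-06). The sexes were far apart for both genes, whereas control mice gave log2 differences of -0.63 and -0.51 with no call. The change between LDC and control mice was 5.53 for Mt2 (adjusted p = 0.000133) and 3.55 for Mt1 (adjusted p = 0.000202), and it passed in every fit that left out 1 array. LDC females were the low group, at 728 ± 234 (SD, n = 3) for Mt2 against 13425 ± 3308 in control females, 9372 ± 4419 in control males and 21023 ± 2921 in LDC males. As the printed windows show, Mt2 and Mt1 both hold metal response cores before their starts.

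Of all 41 metal genes tested, 4 were higher in LDC males and 6 in LDC females. Hamp2, a hepcidin gene, read 36499.9, 50169.7 and 44079 in LDC females and 7408, 7024 and 10255 in LDC males (5.33-fold, adjusted p = 1.72e-05), with log2 differences of -2.41 in LDC and -2.28 in control mice. Slc30a10, a manganese exporter, read 1580.4, 1239 and 1047 against 230.2, 405 and 287 (4.25-fold, adjusted p = 8.69e-05). Tfrc, the transferrin receptor, read 2313, 2504 and 2407 in LDC females and 973, 726 and 1180.2 in LDC males (2.56-fold, adjusted p = 0.00044). Slc30a10 and Tfrc were not called in control mice, with log2 differences of -0.58 and -0.17, and their changes did not pass (adjusted p = 0.112 and 0.115).

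Some genes of neutrophils and of antibody-producing cells were higher in LDC males than in LDC females. Of 7 neutrophil markers tested, 4 were higher in LDC males and 0 in LDC females, at a median of 1.74, while in control mice 0 were higher in males and 5 in females, at a median of -1.82. S100a8, which forms the calcium-binding protein calprotectin with S100a9, read 1695, 1659 and 1545 in LDC males and 260.1, 357 and 218 in LDC females (5.99-fold, adjusted p = 8.32e-06). S100a9 read 952, 1041 and 959 against 146, 437 and 145 (4.69-fold, adjusted p = 0.00135). Summed over the neutrophil markers, signal was 5513 to 5587 in LDC males against 1284 to 2719 in LDC females, and 5976 to 22108 in control females against 1563 to 2686 in control males. The granule protein genes Ngp and Prtn3 were called less firmly, Ngp losing its call without LDC female 1 or LDC male 1 (highest adjusted p = 0.0555) and Prtn3 without LDC female 2 or 3 or LDC male 2 or 3 (0.0824). All LDC female signals of Prtn3 lay under 48.6, and raising them to that level cut its log2 difference from 2.79 to 1.78, which did not pass (adjusted p = 0.0602).

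Among 5 B and plasma cell markers, Jchain, the joining chain of IgA and IgM, read 1384, 2451 and 1894 in LDC males and 421, 595 and 333 in LDC females (4.25-fold, adjusted p = 0.000491). Ighm, the IgM heavy chain, read 2146, 3308 and 2846 against 264, 955 and 220.0 (7.14-fold, adjusted p = 0.00144). The other 3 were not called, and the lowest log2 difference of the 5 was -0.36. The summed signal of these markers ran from 4001 to 6282 in LDC males and 899 to 1927 in LDC females. It ran from 3550 to 4303 in control males and 4574 to 12205 in control females, so LDC females were the low group. The immunoglobulin genes Igha, Igk, Iglv1 and Igkv8-30 were 5.98-fold, 2.93-fold, 6.60-fold and 6.91-fold higher in LDC males, and probe sets of such related genes can share signal.

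Markers of other cell types were not called between the sexes of the LDC mice. Of 10 macrophage and Kupffer cell markers limma called 0 (0 also at an unadjusted p under 0.05), although the median was 0.54 and LDC female 3 read lower than the other LDC females for Clec4f (900.2 against 2989.7 and 2467), C1qa (777 against 3973 and 2848) and Csf1r (2606 against 6951 and 5072). Their summed signal ran from 7530 to 33921 in LDC females and 22142 to 30961 in LDC males. None of 7 endothelial, 8 stellate cell and fibroblast, 4 T and NK cell, 2 bile duct, 2 pancreas and 1 adipocyte markers was called in LDC mice by limma, with 4 of these 24 at an unadjusted p under 0.05. Among all 12390 genes 7.53% were called, and 1104 toward males and 1614 toward females had such an unadjusted p. The part of cell makeup in the results above was not tested.

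No interferon response or antigen presentation gene was called between the sexes of LDC mice. Of 36 tested, limma called 0 (4 at an unadjusted p under 0.05) at a median of 0.01. The called share of all 12390 genes was 7.53%, with 1104 toward males and 1614 toward females at that unadjusted p. Summed signal of the list ran from 162657 to 275722 in control females and from 153797 to 159869 in control males. It ran from 154510 to 167893 in LDC females and from 172308 to 180517 in LDC males. Control mice had 0 male-biased and 11 female-biased genes at a median of -1.01. Among these 11, chosen as examples after their values were seen, Ifit1 read 209, 479 and 386 in LDC males and 644, 469 and 332 in LDC females (log2 difference -0.46), against -1.46 in control mice. Psmb8, an immunoproteasome subunit, had -0.33 in LDC and -1.18 in control mice. Limma's test of a change passed for none of the 36 genes (17 at an unadjusted p under 0.05, all toward males, and adjusted p = 0.481 for Ifit1 and 0.388 for Psmb8), so the sex bias is not shown to differ. B2m and H2-K1, the brightest of the list, had log2 differences of 0.12 and 0.11 in LDC mice.

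The sex difference itself differed between LDC and control mice for 29 autosomal genes. It was shifted toward males in LDC mice for 21 (0.169%) and toward females for 8 (0.0646%). The sign was opposite in LDC and control mice for 22 of the 29. Of the 29 genes, 13 were called in LDC mice only, 9 in control mice only, 6 in opposite directions, and 1, Cyp17a1, in the same direction. At an unadjusted p under 0.05 the change passed for 1512 genes. Leaving out single arrays gave 12 to 48 genes, the highest without control female 2, and eBayes without a trend gave 6. Among the genes not yet described, Tuba4a, a tubulin gene, read 7705, 8376 and 8654 in LDC males and 18929.9, 20938 and 19283 in LDC females (2.39-fold higher in females, adjusted p = 3.82e-07), while control mice gave -0.10 on the log2 scale. Tubb4b behaved likewise, at -1.33 in LDC and 0.21 in control mice. Nmrk1, a kinase of NAD synthesis, was 2.78-fold higher in LDC males (adjusted p = 2.82e-05), and Abcb11, the bile salt export pump, 1.76-fold higher in LDC females (adjusted p = 0.000186).

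**Figure D5:**
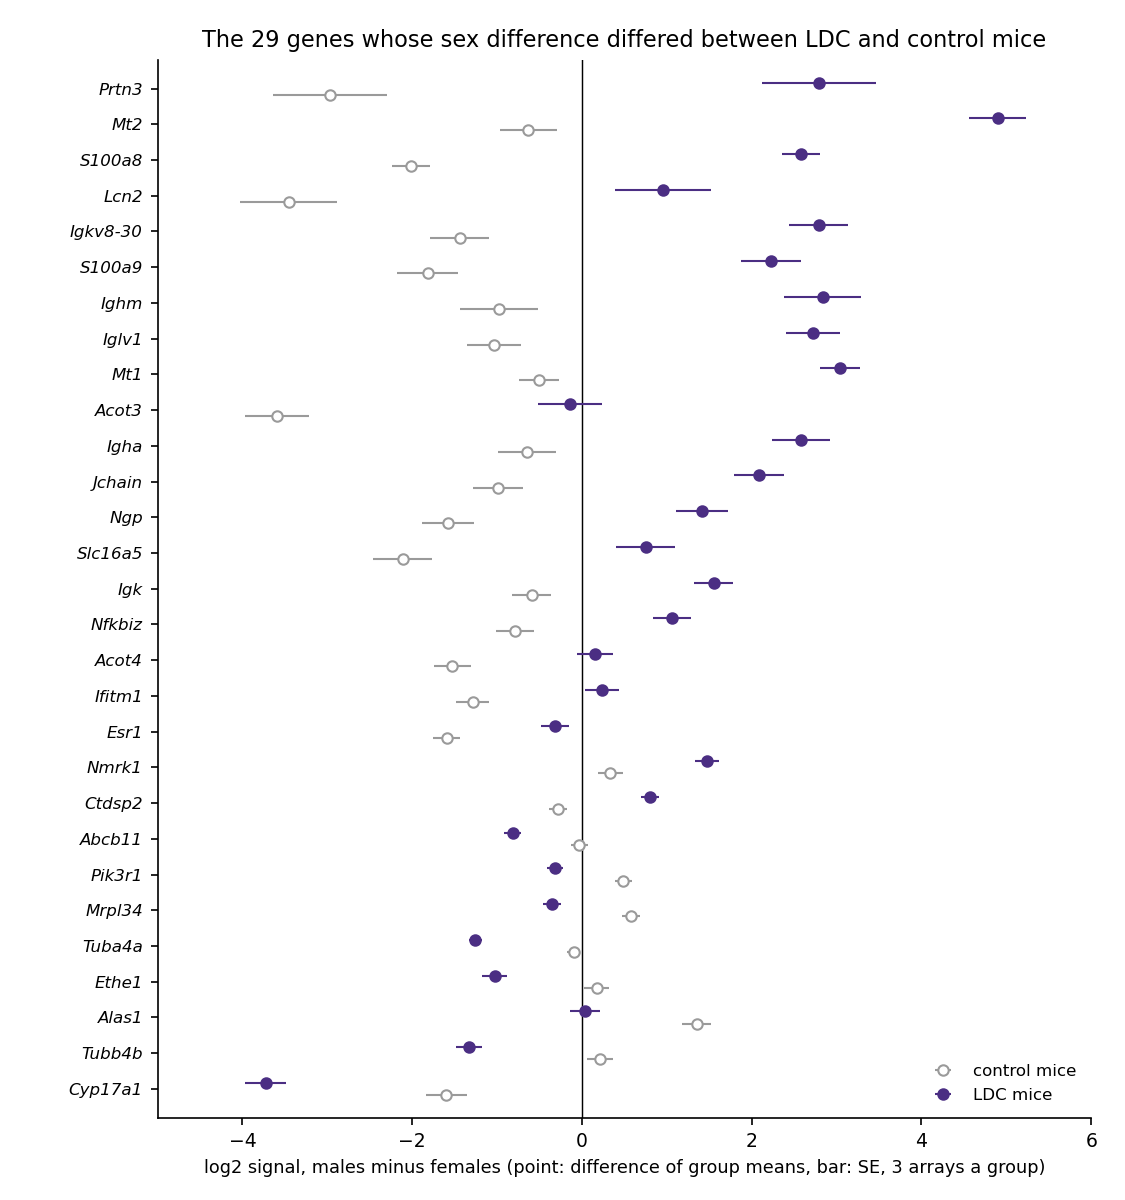
Log2 signal of males minus females (x axis) for the 29 autosomal genes whose sex difference passed the test of a change between LDC and control mice (y axis), as filled points for LDC and open points for control mice with bars for the standard error of the difference. From Prtn3 to Ctdsp2 the LDC value lies to the right of the control value, and from Abcb11 to Cyp17a1 to the left.

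Some sex-biased genes of 1 direction lay side by side. Of the 933 called genes, 138 lay in 63 runs of neighbouring tested genes with the same direction, 11 of them of 3 or more genes, and the number that chance would give was not tested. The female-biased runs included Cyp2b10, Cyp2b13, Cyp2b9 and Cyp2g1 on chromosome 7 (median log2 difference -3.94), Slc22a26, Slc22a27 and Slc22a29 (-4.15) and Cyp2c39, Cyp2c38 and Cyp2c68 (-1.42) on chromosome 19. The male-biased runs included Hsd3b5, Hsd3b2 and Hsd3b3 on chromosome 3 (1.58), Dab1, C8b and C8a on chromosome 4 (1.71), and Mt2 and Mt1 on chromosome 8 (3.97). The share of tested genes called ran from 5.98% on chromosome 14 to 10.4% on chromosome 19.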

How the data were processed

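Liver RNA of 12 mice, 3 in each of 4 groups, was measured on 1-colour Affymetrix mouse expression arrays. The deposited values are MAS 5.0 signal intensities, which the authors computed from the scanned arrays and analysed with GeneSpring 12.6.1. Each array is scaled to a 2% trimmed mean of 500.0. The number of arrays limits the precision. The array annotation pairs 34945 of 45101 probe sets with 1 gene, 932 with several and 9224 with none or a control, and chromosomes came from the RefSeq gene table.

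Intensities were taken as log2 without an added constant. The filter kept 27022 probe sets whose mean log2 signal reached the 40th percentile (5.6, or 48.6 as a signal). A model with a mean for each group was fitted to all 12 arrays in limma 3.58.1 (R 4.3.3), with eBayes using a trend (8 residual and 6.35 prior degrees of freedom) and Benjamini-Hochberg adjustment over all 27022. The contrasts were males minus females in LDC mice, the same in control mice, and the difference of these. A gene stands for its brightest tested probe set. In simulated data for the LDC comparison over 27022 probe sets, 34 of 100 changes of log2 size 1 and 69 of 100 of size 2 were recovered, with 8 false calls. No other probe set had a sex difference there and the noise was normal, unlike in the real arrays. These rates therefore need not hold for the real comparison.

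Genes named are the 12 largest differences in each direction without overlap of arrays and with a mean signal of at least 200 in the higher group, the 10 smallest p-values in each direction (also for the difference between LDC and control mice), up to 5 called and 2 bright uncalled members of each gene list described, and a set of receptors, regulators and metallothioneins. Not every gene that this rule chose is described, and for several lists the uncalled members are left out. Genes named outside the rule were chosen after their values were seen. The members and gene lists were chosen with earlier results of these data known. Alternatives were another variance model, filter, scaling, probe set rule and t-test, array weights, a replicate block and leaving out each array. Promoter windows are RefSeq sequences of GRCm38.p6, and matches were searched in Python 3.11.15 with pandas 2.3.3. Figures were drawn with matplotlib 3.10.9.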

Additional observations from a re-analysis of the deposited data

Results flagged for a closer look

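The sex difference differed between LDC and control mice for 29 autosomal genes by limma's test of the difference itself. The values are the log2 sex difference (males minus females) in LDC mice minus that in control mice, and the genes outside the naming rule are listed because they passed this test. Shifts over 3 toward males were those of Prtn3 (5.75, with LDC female signals under the filter level of 48.6), Mt2 (5.53), S100a8 (4.60), Lcn2 (4.41), Igkv8-30 (4.23), S100a9 (4.05), Ighm (3.81), Iglv1 (3.76), Mt1 (3.55), Acot3 (3.45), Igha (3.23) and Jchain (3.08). Smaller shifts toward males were those of Ngp (2.99), Slc16a5 (2.86), Igk (2.14), Nfkbiz (1.85), Acot4 (1.68), Ifitm1 (1.52), Esr1 (1.27), Nmrk1 (1.14) and Ctdsp2 (1.08). The shifts toward females were those of Cyp17a1 (-2.13), Tubb4b (-1.54), Alas1 (-1.31), Ethe1 (-1.20), Tuba4a (-1.16), Mrpl34 (-0.93), Pik3r1 (-0.81) and Abcb11 (-0.79).

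Of these, 5 are neutrophil markers (Prtn3, S100a8, S100a9, Lcn2 and Ngp) and 5 more are immunoglobulin genes or the joining chain gene beside Ighm. The summed marker signals given above contain several of these same genes, so their shift is no separate support. The part of cell makeup was not tested. In fits that left out 1 array, the highest adjusted p was 0.149 for Abcb11 and Alas1, 0.142 for Lcn2, 0.12 for Esr1, Ethe1 and Pik3r1, 0.116 for Ighm, 0.0996 for Prtn3, 0.0911 for Mrpl34, 0.0854 for Cyp17a1 and 0.0507 for Igk, so these calls depend on single arrays. Acot3, Acot4, Igha, Slc16a5, Nfkbiz, Nmrk1 and Ifitm1 lie outside the naming rule and were not recomputed, so their stability is not known.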

How the results depend on the processing

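Of 418 single-gene results (the LDC sex difference and its change from control mice in 209 genes chosen by the naming rule), 0 that passed changed direction under the alternatives run. The t-test and the fits to 6 arrays covered 209 of them, and genes named outside the rule were not recomputed. The number of genes called moved with the variance model. With eBayes without a trend, 244 genes were higher in LDC males and 247 in LDC females, 221 and 364 in control mice, 214 were shared and 6 differed between LDC and control mice. The methods' t-test gave 261 and 241 in LDC mice, 186 and 386 in control mice and 175 shared at the methods' threshold, and 96 and 92, 1 and 2, and 1 after Benjamini-Hochberg adjustment. The methods' criterion (2-fold and an unadjusted p) gave 320 female-biased genes in LDC mice, 275 male-biased genes in control mice, 223 shared and 555 differences. Fits to the 6 arrays of 1 exposure gave 553 and 666 in LDC mice and 242 and 364 in control mice. In 7 of 29 settings LDC mice had more calls than control mice, namely this one, array weights, the adjusted t-test and the fits without control female 1 or 3 or control male 2 or 3. Leaving out single arrays gave 269 to 475 male-biased and 293 to 573 female-biased genes in LDC mice, 309 to 508 and 438 to 718 in control mice, 311 to 414 shared and 12 to 48 differences. The cause of these shifts was not tested. The arrays that moved a count by over 1.5 times were LDC male 3 (269 male-biased and 327 female-biased genes) and LDC female 1, 2 and 3 (301, 293 and 317). In control mice they were control male 2 (309 and 448) and control female 1 (438). For the differences they were LDC female 2 and 3 (16 and 15), LDC male 1, 2 and 3 (14, 18 and 12), control female 2 (48) and control male 3 (18). Same-numbered arrays showed little shared deviation over the tested probe sets (r from -0.028 to 0.059). This cannot exclude a shared litter or cage, which the labels do not give. The fit with a replicate block gave 400 and 475 genes in LDC mice, 440 and 651 in control mice, 399 shared and 25 differences. Of the single-gene calls, the adjusted t-test ended 83, eBayes without a trend 47, leaving out 1 LDC array 20 to 30, leaving out 1 control array 3 to 11, the replicate block 7, median centring 6 and quantile normalization 4. Raising signals under the filter level to it, chosen after seeing the data, ended 2.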
